A study of Mus musculus with 12 samples.

Results

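The Myc locus was examined as the stretch of mouse chromosome 15 from 60700000 to 63400000 (mm9), 2.70 Mb around the Myc gene, which was placed at about 61816900 to 61822000. Every consensus peak of open chromatin that overlapped this stretch was taken, with no use of its width or of the populations that held it. There were 143 peaks in all, of 210325 in the 4 lists of the study, and they fell into 66 merged regions, of 82365 in the genome. The lists came from Omni-ATAC-seq, an assay that marks accessible DNA by where Tn5 transposase can cut it, of intestinal epithelial cells of C57Bl/6 mice sorted by a Sox9EGFP reporter into the populations Sox9 Negative, Sox9 Sublow, Sox9 Low and Sox9 High. Each population had 3 libraries (12 in all) and is represented by 1 consensus list. The labels give 12000 cells collected per population, and each of the 12 libraries carries this entry. The age and sex of the mice are not given in the labels, and all 4 populations carry the same reporter. The reporter follows Sox9, a transcription factor of the crypt, so a population is a range of reporter level and not a single cell type. In earlier work with this mouse, Negative cells were enriched for differentiated cells, Sublow for transit-amplifying progenitors, Low for crypt base stem cells and High for enteroendocrine and related secretory cells. The lists hold positions only, so these identities could not be checked against marker genes here.

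Myc encodes a transcription factor that drives cell growth, ribosome production and division. In the intestine it is a target of Wnt signalling and is most active in the crypt, where stem and progenitor cells divide. The gene lies in a long stretch with few other coding genes, and in several tissues it is known to be controlled by enhancers far upstream and downstream, often a different set in each cell type. Pvt1, the next gene downstream, makes a long non-coding RNA, and its promoter has been shown in human cells to compete with that of MYC for enhancers. In the RefSeq order of mouse genes (GRCm38.p6, used for names and order only), no gene lies between Myc and Pvt1. The nearest coding genes were A1bg and then Lratd2 on the upstream side and Gsdmc and then Gsdmc2 on the downstream side, with 22 non-coding genes and pseudogenes in between, Myc and Pvt1 not counted. Which of the downstream peaks lie within Pvt1 was not analysed here. All positions below are on mm9 chromosome 15, and distances run from the Myc start to the nearest edge of a region.

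The lists of the 2 middle reporter levels, Sublow and Low, held the most peaks around Myc and covered the most bases. Negative had 25 peaks in the domain, Sublow 40, Low 47 and High 31. These peaks covered 9.74 kb in Negative, 18.9 kb in Sublow, 21.9 kb in Low and 11.7 kb in High. In number of peaks the whole lists differ less: relative to Negative, Sublow had 1.60 times as many peaks in the domain and 1.15 times as many in the genome, Low had 1.88 and 1.28 times as many, and High had 1.24 and 1.20 times as many. Covered bases are not given for the whole lists. Their median widths were also larger for Sublow and Low (464 and 433 bp) than for Negative and High (394 and 383 bp). Each population is 1 list with no score, count or value per library, so no value here has a replicate error, no test across libraries could be made, and sequencing depth is unknown. A population without a peak had no consensus peak listed there, and its DNA may still have been open to a lesser degree.

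**Figure D1:**
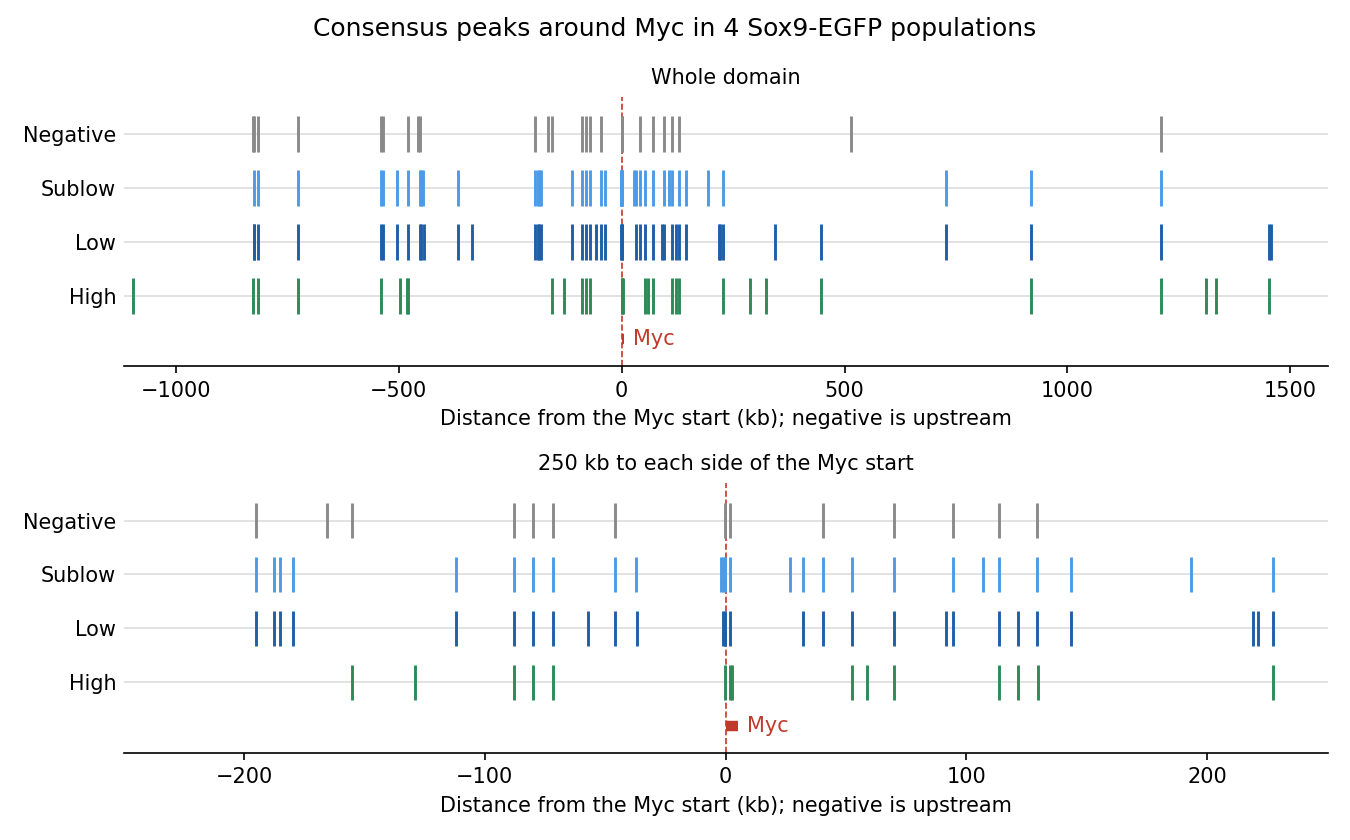
Consensus peaks of the 4 lists by distance from the Myc start in kb (horizontal axis), 1 row per list and 1 mark per peak at its centre (marks are not drawn to peak width), for the whole domain (top) and 250 kb to each side (bottom). Peaks crowd within about 200 kb of the gene, and the Negative row is nearly empty more than 150 kb downstream, where it has 2 peaks.

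The start of Myc was open in all 4 populations. The region over it ran from 61816322 to 61817333 and, at 1012 bp, was the widest of the domain. The Negative peak there was 645 bp wide, the Sublow peak 897 bp, the Low peak 955 bp and the High peak 708 bp. It was thus wider in the Sublow and Low lists than in the Negative and High lists, as were the medians of all domain peaks: 301 bp for Negative, 479 bp for Sublow, 469 bp for Low and 316 bp for High. In the whole lists these medians were 394, 464, 433 and 383 bp, in the same order of lists. A second region inside the gene, from 61818316 to 61818840 (1.42 kb after the start), was also held by all 4 lists, with 367 bp for Negative, 507 bp for Sublow, 342 bp for Low and 473 bp for High. The third region in the gene, from 61819290 to 61819780, was held by High alone and was the widest region of the domain that only High held (491 bp).

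Just before the gene, 2 narrow regions were held by the middle levels. The nearer, from 61815925 to 61816092, ended 808 bp before the start and had peaks of 162 bp for Low and 168 bp for Sublow. The next, from 61814953 to 61815131, was held by Sublow alone (179 bp). Beyond the gene, the nearest region lay 26.7 kb after the start, from 61843560 to 61843717, and was also held by Sublow alone (158 bp). These last 2 were the widest of the 4 regions that Sublow held by itself, which ranged from 71 to 179 bp. None of the 4 reached 200 bp. With narrower peaks left out, Sublow alone held 1 other region, from 61779647 to 61780128, where its peak was 464 bp and the Low peak 130 bp.

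Open regions were densest next to the gene and thinned out with distance. Within 200 kb of the start lay 33 of the 66 regions (50%), and 17 lay farther than 500 kb. The density was 82.5 regions per Mb within 200 kb and 24.4 per Mb over the whole domain. Of the 7 bins of 100 kb from 500 kb upstream to 200 kb downstream, 6 held a region, and the one between 300 and 200 kb upstream held none. The longest stretches between neighbouring regions of any list were 290 kb, from 62734941 to 63025371 downstream, 269 kb, from 60720684 to 60989290 upstream, and 211 kb, from 62332830 to 62543983 downstream. Upstream there were 34 regions in 1.12 Mb (30.4 per Mb) and downstream 31 in 1.58 Mb (19.6 per Mb).

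The share of peaks upstream of Myc ranged widely between the lists, though within counting error. Negative had 16 peaks upstream and 8 downstream, Sublow 23 and 16, Low 25 and 21, and High 13 and 17, besides the peak of each over the Myc start. The upstream share was thus 66.7% in Negative (exact 95% interval 44.7 to 84.4%), 59.0% in Sublow (42.1 to 74.4%), 54.3% in Low (39.0 to 69.1%) and 43.3% in High (25.5 to 62.6%). The share was lower at each higher reporter level, but all 4 intervals overlap, and at these counts the differences cannot be told from counting error. The intervals cover counting error only and treat peaks as independent, and so do the others given here.

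Fewer regions were common to all populations than in the genome at large. In this and the other comparisons, the genome and the rest of the chromosome were not matched to the domain for density of genes or promoters. Other stretches with few genes were not compared, so the differences are not shown to be particular to Myc. In the domain 13 of 66 regions were held by all 4 lists, 19.7% (exact interval 10.9 to 31.3%), against 33.1% of all regions in the genome and 34.4% in the rest of chromosome 15. Regions held by Sublow and Low only were as many, 13 of 66 or 19.7% (10.9 to 31.3%), against 7.18% in the genome and 7.15% in the rest of the chromosome. The genome value lies outside the interval in both cases. The combination of Sublow and Low only was picked out from all combinations of lists. None of the intervals given here is adjusted for the number of shares compared. Regions held by 1 list numbered 25 (37.9%, 26.2 to 50.7%), against 31.9% in the genome. Of these, 3 were held by Negative alone, 4 by Sublow, 8 by Low and 10 by High, or 4.55, 6.06, 12.1 and 15.2% of the domain's regions, against 6.82, 2.06, 6.41 and 16.6% of the genome's. The domain's shares for Sublow alone (interval 1.68 to 14.8%) and Low alone (5.38 to 22.5%) were above those of the genome, but both intervals hold the genome value. The counts of single lists were small and depended on the processing. With peaks of at least 200 bp, 2 regions were held by Negative alone, 1 by Sublow, 7 by Low and 5 by High, so that Low then had more than High, and with a reciprocal overlap of 50% Negative alone held 8. With the widest peaks of each list only, the counts were 2, 0, 2 and 6. Another 7 regions, 10.6% (4.37 to 20.6%), were held by Negative, Sublow and Low, near the 8.92% of the genome.

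**Figure D2:**
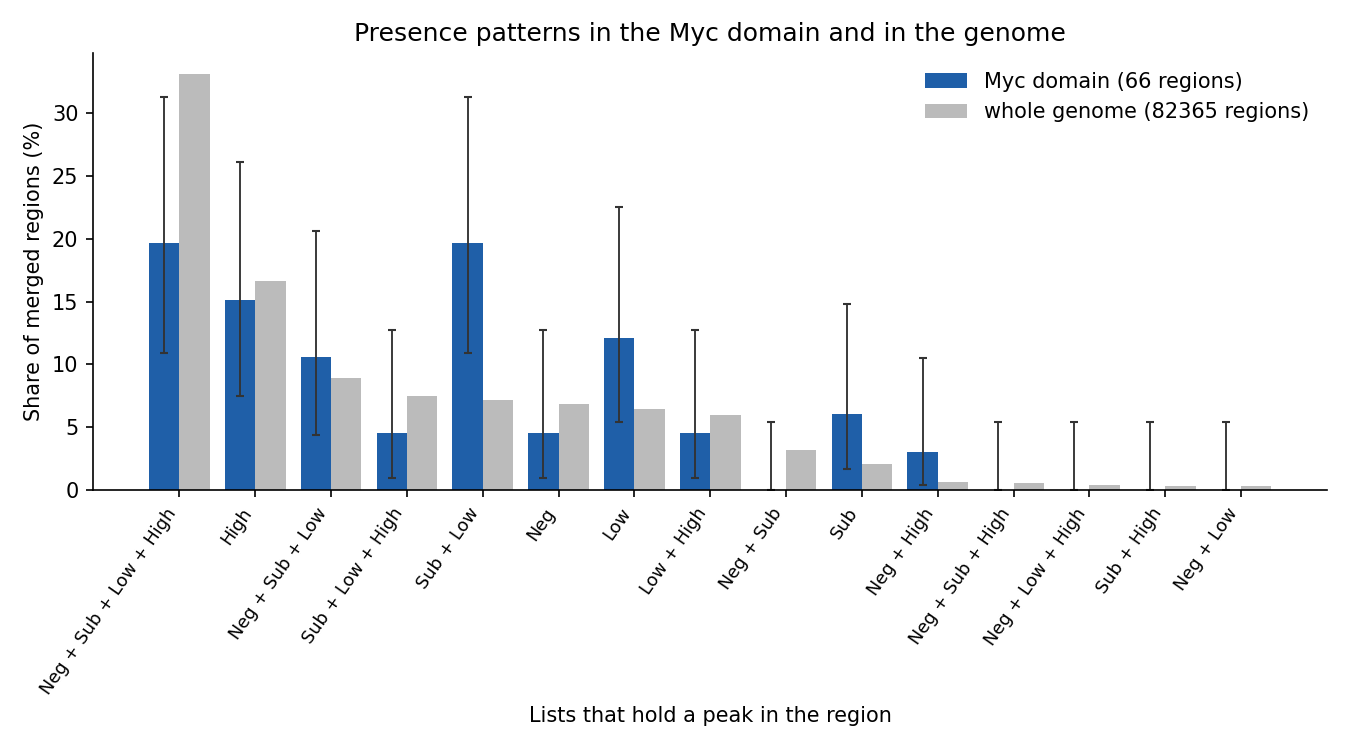
Share of merged regions (%) by the lists that held a peak in them (Neg, Negative; Sub, Sublow), in the Myc domain (left bars, 66 regions, with exact 95% intervals) and in the genome (right bars, 82365 regions). The bar for Sublow and Low only reaches 19.7% in the domain against 7.18% in the genome, and the bar for all 4 lists is lower in the domain.

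A further description is whether lists that shared a region were adjacent in reporter level. Among 28 regions with peaks from 2 or 3 lists, the lists were adjacent in 26, or 92.9% (76.5 to 99.1%), close to the 93.7% of the genome. High was among the lists in 8 of the 28, 28.6% (13.2 to 48.7%), against 43.9% in the genome, which lies inside that interval. The 2 exceptions to adjacency were held by Negative and High. One, from 60989291 to 60989758, had peaks of 468 bp for High and 147 bp for Negative, and the other, from 61661647 to 61661834, had 188 bp for High and 146 bp for Negative. Both Negative peaks were under 200 bp wide. Negative and Sublow only held 0 of 66 regions of the domain, which allows up to 5.44% by the exact interval, against 3.17% of genome regions.

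Most regions that were open in Low cells around Myc had no peak in High cells. Of 47 Low regions in the domain, 28 lacked a High peak, 59.6% (44.3 to 73.6%), against 32.7% of Low regions in the genome and 30.8% in the rest of chromosome 15. For Sublow regions it was 24 of 40, or 60% (43.3 to 75.1%), against 34% in the genome. These are largely the same regions. The 13 of Sublow and Low only and the 7 of Negative, Sublow and Low are in both counts. The Low and Sublow shares, here and by side of the gene, are thus not separate results. For Negative regions it was 10 of 25, or 40% (21.1 to 61.3%), an interval that holds the genome value of 35.7%. Regions without a Negative peak were also frequent: 27 of 47 Low regions, 57.4% (42.2 to 71.7%), against 38.8% in the genome, and 20 of 40 Sublow regions, 50% (33.8 to 66.2%), against 27.2%. Between the middle levels themselves the values were near the genome's, with 11 of 47 Low regions lacking a Sublow peak (23.4%, genome 18.7%) and 4 of 40 Sublow regions lacking a Low peak (10%, genome 9.71%). Of 25 Negative regions, 5 lacked a Low peak (20%, genome 20.7%) and 5 a Sublow peak (20%, genome 15.1%). Of 31 High regions, 12 had no Low peak (38.7%, 21.9 to 57.8%, genome 27.9%), 15 no Sublow peak (48.4%, 30.2 to 66.9%, genome 36.3%) and 16 no Negative peak (51.6%, 33.1 to 69.8%, genome 46.7%), and each of these intervals holds the genome value.

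The share without a High peak was higher upstream of Myc than downstream. There, 18 of 25 Low regions had no High peak, 72% (50.6 to 87.9%), and 16 of 23 Sublow regions, 69.6% (47.1 to 86.8%). Downstream it was 10 of 21 Low regions, 47.6% (25.7 to 70.2%), and 8 of 16 Sublow regions, 50% (24.7 to 75.3%). The upstream intervals lie above the genome shares and the downstream ones hold them, while the intervals of the 2 sides overlap each other, so at these counts the difference between the sides cannot be told from counting error. The 7 upstream Low regions that did have a High peak were all held by all 4 lists. Most genome regions with both a Low and a High peak were too. There, 27294 were held by all 4 lists, 6167 by Sublow, Low and High, 4922 by Low and High only and 294 by Negative, Low and High. It follows from the same 7 regions that those held by Low and High and not by Negative numbered 0 of 34 upstream (exact interval up to 10.3%). Downstream they numbered 6 of 31 (19.4%, 7.45 to 37.5%), against 13.5% of the genome's regions.

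**Figure D3:**
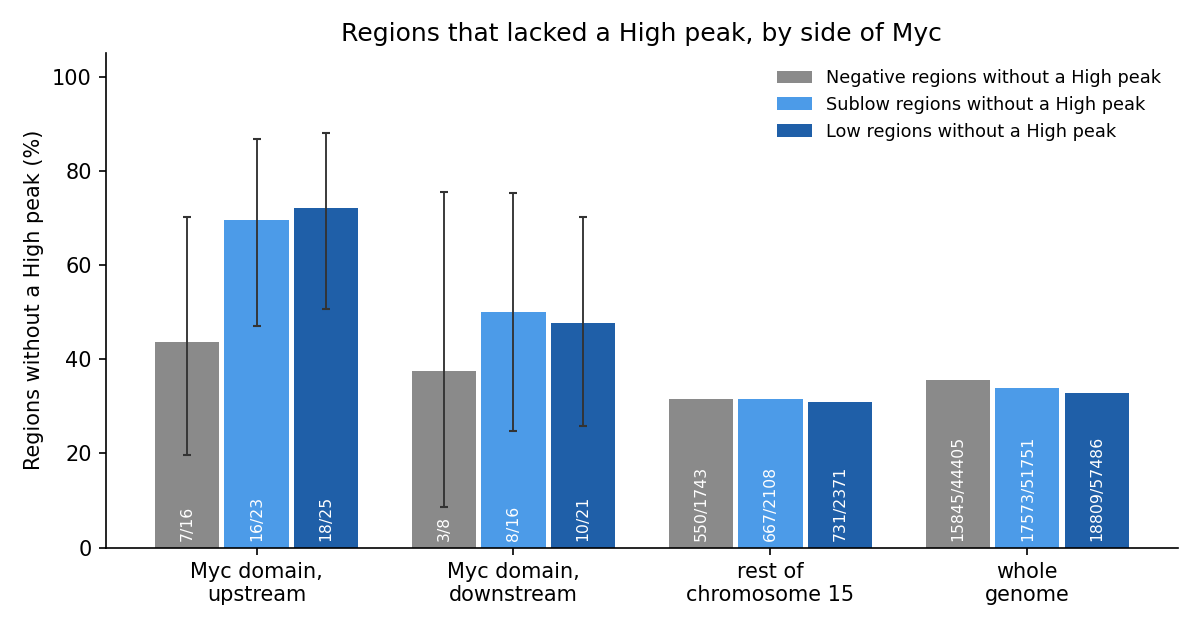
Share of Negative, Sublow and Low regions that had no High peak (%), upstream and downstream of Myc, in the rest of chromosome 15 and in the genome, with the counts written in the bars and exact 95% intervals for the domain. The Low bar stands at 72% upstream and 47.6% downstream, against 30.8% in the rest of the chromosome and 32.7% in the genome.

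Far upstream, regions without a High peak lay in groups. A stretch of 323 kb, from 479 to 155 kb before the start, held no High peak and was picked after the values were seen. It contained 11 regions: 6 of Sublow and Low only, 2 of Negative, Sublow and Low, 1 of Low alone and 2 of Negative alone. All 11 lack a High peak because of how the stretch was picked. These patterns made up, in the same order, 7.18, 8.92, 6.41 and 6.82% of all regions in the genome. Low had 9 peaks in the stretch, Sublow 8 and Negative 4. Near its far end, 3 regions lay between 452 and 444 kb upstream. The middle one, from 61367252 to 61368077, was the widest region of the domain with peaks in Sublow and Low only (826 bp), with 826 bp for Low and 459 bp for Sublow. Its neighbours ran from 61364177 to 61364757, with 285 bp for Negative, 570 bp for Sublow and 557 bp for Low, and from 61372482 to 61372873, with 351 bp for Low and 242 bp for Sublow. At the near end of the stretch, 4 regions lay between 195 and 180 kb upstream. The first, from 61621393 to 61622242, had 152 bp for Negative, 780 bp for Sublow and 850 bp for Low, and the other 3 had peaks in Low (389, 333 and 210 bp) and Sublow (360, 299 and 344 bp) only. Between these groups, a region from 61450369 to 61451007 was nearly the same width in Low (634 bp) and Sublow (636 bp).

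Nearer the gene on the same side, 3 regions in a row were held by all 4 lists. They lay 87.3, 79.5 and 71.2 kb upstream. The first, from 61728569 to 61729554, was the second widest of the domain that all lists held (986 bp), with 735 bp for Negative, 740 bp for Sublow, 746 bp for Low and 859 bp for High. The next, from 61736668 to 61737363, had 662, 695, 658 and 570 bp in the same order of lists. In these 2 the lists were close in width, with the widest peak 1.17 and 1.22 times the narrowest. The last of the 3, from 61745054 to 61745652, had 301 bp for Negative, 576 bp for Sublow, 582 bp for Low and 363 bp for High. Both middle levels thus had wider peaks than Negative and High, which was not so in the first 2. In the genome, the medians for regions of all 4 lists were also higher for Sublow and Low (658 and 643 bp) than for Negative and High (529 and 565 bp). Between the last of the 3 and the gene lay 3 regions with no High peak more than 2 kb from the start, among them 1 from 61770743 to 61771419 with 420 bp for Negative, 601 bp for Sublow and 677 bp for Low.

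More than 500 kb upstream, regions of all 4 lists lay among regions of fewer lists. The widest region of the domain held by Negative, Sublow and Low (976 bp) ran from 60992953 to 60993928, 823 kb before the start, with 294 bp for Negative, 944 bp for Sublow and 667 bp for Low. Next to it, from 61000471 to 61001044, a region of all 4 lists had 557 bp for Negative, 574 bp for Sublow, 567 bp for Low and 284 bp for High. At 539 kb, the region from 61277682 to 61278396 had 527 bp for Negative, 715 bp for Sublow, 566 bp for Low and 520 bp for High. The first region of the domain, from 60720414 to 60720683 (1096 kb upstream), was held by High alone (270 bp). On the whole upstream side, High held 3 more regions alone, 158 to 361 bp wide, the widest from 61318920 to 61319280. Low held 3 alone (187 to 317 bp) and Negative 2, of which the wider ran from 61650955 to 61651451 (497 bp), 165 kb before the start.

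Downstream, the first 150 kb mixed regions of all lists with regions of Sublow and Low. Beyond the gene, regions held by all 4 lists lay 69.6, 113 and 129 kb after the start. The first of them, from 61886519 to 61887145, had 180 bp for Negative, 391 bp for Sublow, 477 bp for Low and 558 bp for High, wider at each higher reporter level. The next, from 61930208 to 61930923 (716 bp), had 343 bp for Negative, 508 bp for Sublow, 409 bp for Low and 534 bp for High. The third, from 61946068 to 61946840 (773 bp), had its narrowest peak in the High list, with 721 bp for Negative, 752 bp for Sublow, 761 bp for Low and 282 bp for High. These 3 thus shared a presence pattern but not an order of widths. High also had peaks in 2 other shared regions here. One, from 61869269 to 61869799 (52.4 kb), had 508 bp for Sublow, 514 bp for Low and 499 bp for High and no Negative peak. The other, from 61938120 to 61938440, was the widest of the domain held by Low and High only (321 bp), with 297 bp for High and 321 bp for Low.

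More than 200 kb downstream, a limit set after the values were seen, Negative and Sublow held a smaller share of regions than in the genome, and Low and High a like share. Of the 15 regions there, Negative held 2, or 13.3% (1.66 to 40.5%), against 53.9% of all regions in the genome, and Sublow held 4, or 26.7% (7.79 to 55.1%), against 62.8%. Low held 10, or 66.7% (38.4 to 88.2%), against 69.8%, and High 9, or 60% (32.3 to 83.7%), against 65.1%. Low held 4 of the 15 alone (26.7%, 7.79 to 55.1%, genome 6.41%) and High 4 alone (the same share and interval, genome 16.6%), and the genome value lies outside the interval for Low alone and inside it for High alone. The widest region of Low alone ran from 62035749 to 62036336, 219 kb after the start (588 bp), and the next widest, of 437 bp, lay nearer, from 61908183 to 61908619. The last region of the domain, from 63273888 to 63274234 (1457 kb), was also held by Low alone (347 bp). The longest stretch between 2 peaks of a list was 693 kb in Negative, 500 kb in Sublow, 290 kb in Low and 469 kb in High, in each case downstream. Stretches that run to an edge of the domain are not counted in these values: the first Low peak lay 291 kb from the upstream edge, which is slightly longer than the longest stretch between Low peaks.

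A few wide regions stood out in this sparse part. Negative alone held the region from 62332116 to 62332829 (714 bp), 515 kb after the start, and it was the widest of the domain held by a single list. The region from 62734195 to 62734940 (746 bp, 917 kb) was the widest held by Sublow, Low and High, with 494 bp for Sublow, 711 bp for Low and 731 bp for High. At 1208 kb, the region from 63025372 to 63026087 (716 bp) was held by all 4 lists, with 716 bp for Negative, 644 bp for Sublow, 664 bp for Low and 692 bp for High. It was the only region of the domain held by all 4 lists more than 150 kb downstream, and the only one of the 13 in which the Negative peak was the widest.

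Within the regions of all 4 lists, no single list had the widest peaks throughout. In the 13 regions of all 4 lists the median width was 527 bp for Negative (180 to 735), 638 bp for Sublow (231 to 897), 582 bp for Low (282 to 955) and 520 bp for High (223 to 859). The genome medians in such regions were 529, 658, 643 and 565 bp. The widest peak was that of Negative in 1 of the 13 regions (7.69%, genome 8.7%), of Sublow in 4 (30.8%, genome 38.1%), of Low in 4 (30.8%, genome 33%) and of High in 4 (30.8%, genome 18.8%). The ranges of the 4 lists overlap. In the 7 regions of Negative, Sublow and Low, by contrast, the Negative peak was the narrowest in 7 of 7 (exact interval 59.0 to 100%), against 52.3% of such regions in the genome. Neither this count nor the others of widest or narrowest peaks was planned, and the interval is not adjusted for the number of shares compared. The medians in these 7 regions were 285 bp for Negative (152 to 420), 570 bp for Sublow (377 to 944) and 557 bp for Low (370 to 850), against 319, 399 and 344 bp in the genome. In the 13 regions of Sublow and Low only, the Low peak was the wider in 8 of 13 (61.5%, 31.6 to 86.1%), near the 67.8% of the genome, and the medians were 351 bp for Low and 360 bp for Sublow.

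**Figure D4:**
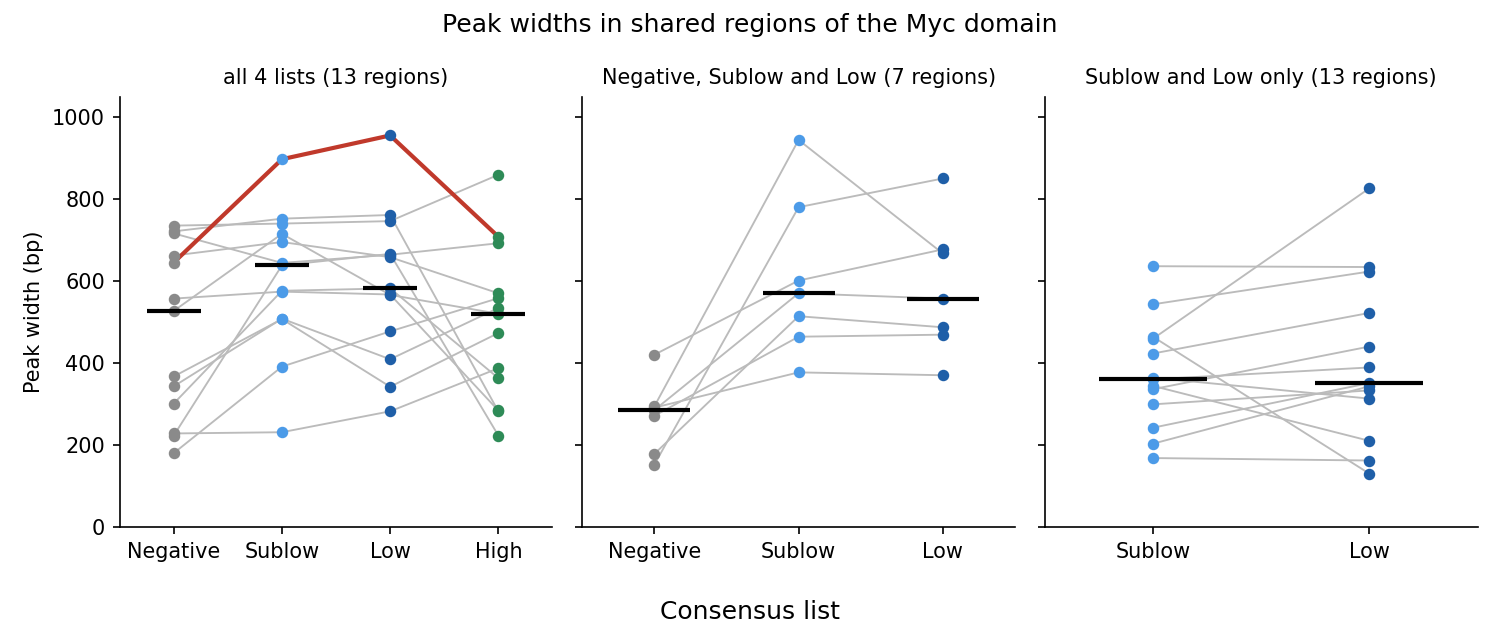
Peak width in bp (vertical axis) in each list for the domain's regions held by all 4 lists, by Negative, Sublow and Low, and by Sublow and Low only. Points are peaks, lines join the peaks of 1 region, black bars are medians, and the red line is the region over the Myc start. In the middle panel each Negative point lies below the other points of its region.

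Overlap counted in bases was lower in the domain than in the genome for each of the 6 pairs of lists. The Jaccard index, which divides the bases common to a pair of lists by the bases in either of them, was 0.681 for Low and Sublow in the domain, against 0.743 in the genome. For High and Low it was 0.298, against 0.541, and for High and Sublow 0.292, against 0.504. For Low and Negative it was 0.322, against 0.522, and for Sublow and Negative 0.382, against 0.612. High and Negative, at 0.330 against 0.441, were the pair with the smallest drop after Low and Sublow. By side, the index was lower upstream for the pairs of High with the middle levels, at 0.210 upstream and 0.369 downstream for High and Low and 0.209 and 0.365 for High and Sublow. It was higher upstream for High and Negative (0.375 and 0.233), Low and Sublow (0.753 and 0.572) and Low and Negative (0.351 and 0.251), and nearly equal for Sublow and Negative (0.371 and 0.361).

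In number of regions the domain lay in the middle range for its length. It held 66 regions, against a median of 84 (quartiles 38 and 134) in 867 autosomal windows of the same length on a grid. Its share of Low regions without a High peak, 59.6%, compares with a median of 33.6% (quartiles 28.5 and 39.6%, highest 65%) in the 685 windows with at least 20 Low regions. Its 19.7% of regions held by all 4 lists compares with a median of 31.1% in those windows (26.3 and 36.3%). Its 19.7% held by Sublow and Low only compares with a median of 6.94% (5.08 and 9.41%, highest 25%). The windows are a description of the genome and were chosen after the values of the domain were seen. They were not matched to the domain for density of genes or promoters.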

How the data were processed

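Per the submitters' processing notes, reads were handled with MACS2 2.1.2, Bowtie2 2.3.4, Trim Galore 0.4.3, deepTools 2.5.2 and Picard 2.10.3 on the mm9 build. Their roles and settings, any shift of cut positions for Tn5, and how the libraries of a population were pooled are not given in the sources used here. Each consensus list, as the authors deposited it, holds the chromosome, start, end and name of every peak. Start and end were both read as 1-based and inclusive. Overlapping or touching peaks (1 bp sufficed) were joined across lists into regions, and no domain region held more than 1 peak of a list. The domain and the Myc position, which is approximate, were given. The members, tests and regions described were chosen with earlier results of these lists known. Regions given with positions were those over Myc and nearest to it, the widest of each presence pattern (5 for all 4 lists, 2 per list alone), the first and last, and the longest empty stretches. The others were chosen after their values were seen. Shares have exact (Clopper-Pearson) 95% intervals. The joining step was tested on simulated lists. Python 3.11.15 was used, with matplotlib 3.10.9, pandas 2.3.3, scipy 1.17.1 and numpy 2.4.6. No mm9 sequence or annotation was used here, so no sequence is printed and no peak was placed in Pvt1.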

Additional observations from a re-analysis of the deposited data

How the results depend on the processing

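No paired analysis was possible because the lists hold no library values, so leaving out replicates could not be done either. Of 80 values recomputed under the alternatives, 63 stayed and 17 moved, where a count was taken to move past 1.5-fold and a share or median width when it left its exact 95% interval. Limiting each list to its 22730 widest peaks left 10 Negative, 15 Sublow, 18 Low and 12 High peaks in the domain in 26 regions, with 0 regions held by Sublow alone, 2 by Low and 6 by High, 7 by Sublow and Low only, and 100% of shared regions in reporter order. Fewer peaks follow from this setting by construction. With peaks of at least 200 bp, 1 region was held by Sublow alone and 5 by High alone, and 100% were in reporter order, since the regions of Negative and High lost their Negative peaks. With a reciprocal overlap of 50%, Negative alone held 8 regions. Taking widths only from regions of all 4 lists gave medians of 527 bp for Negative (301 bp over all domain peaks, interval 228 to 527), 638 bp for Sublow (479, 377 to 570), 582 bp for Low (469, 347 to 566) and 520 bp for High (316, 223 to 491). The Negative value, at the end of its interval, changed the most in fold and passed that of High, and the cause was not tested. The share of Low regions without a High peak lay between 58.7 and 66.7% under the 5 alternatives, which for this value and for the regions of Sublow and Low only were chosen after seeing the data. The genome shares were not recomputed under these settings, so the contrast with the genome was not checked under them. Depth is unknown, so where a list has no peak, closed DNA cannot be told apart from a missed peak.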

Other observations

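One region of Low alone lay 335 kb before the Myc start, from 61481449 to 61481765 (317 bp), with the next region on either side 30.4 kb farther from the gene and 140 kb nearer to it. It was picked after its position was seen. A MYC enhancer studied in colorectal cancer is named for a like distance in the human genome. The likeness is of distance only. The next region farther from the gene, 366 kb before the start, was wider (639 bp) and held by Sublow and Low. Whether either mouse region is the counterpart of that enhancer was not tested, since no mouse sequence or alignment was used here.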
